A study of Mus musculus with 12 samples.

Results

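MHC class II molecules present peptides from material a cell has taken up to CD4+ T cells, and 10 genes of this pathway were followed in mouse bone marrow-derived macrophages (BMDM). The genes were taken by name from the 56748 genes of the deposited count table. They were the antigen-presenting chains H2-Aa, H2-Ab1 and H2-Eb1, the invariant chain Cd74, the transactivator Ciita, the peptide-editing H2-DMa, H2-DMb1 and H2-DMb2, and the regulatory H2-Oa and H2-Ob. All 10 were found in the table. BMDM came from C57BL/6J mice, 3 mice for each condition, and were grown with 20 ng/mL M-CSF, then polarized for 48 hours with 10 ng/mL IL4 to become M2-like. They were then kept for 72 hours in plain medium (untreated), in supernatant from YUMM5.2 eGFP cells (eGFP supernatant), in supernatant from YUMM5.2 Ifnb1eGFP cells (Ifnb1eGFP supernatant) or with recombinant IFNβ (rIFNβ). YUMM5.2 is a mouse melanoma line, here transduced with a lentiviral vector in which a tetracycline response promoter drives eGFP alone or Ifnb1 and eGFP. Both kinds of donor cells were treated with doxycycline at 1 μg/mL for 72 hours, so both supernatants came from drug-treated cells and the other conditions did not. IFNβ was set to 1500 pg/mL in Ifnb1eGFP supernatant and in rIFNβ, and eGFP supernatant was diluted in the same ratio.

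Class II transcription depends on a short promoter module, the X and Y boxes, which RFX, CREB and NF-Y proteins occupy. CIITA does not bind DNA itself but joins these proteins and switches the genes on, and its own amount usually sets that of class II. IFNγ is the classical inducer of CIITA in macrophages, and IL4 raises class II in mouse macrophages as well. The α and β chains pair in the endoplasmic reticulum, where the invariant chain Cd74 fills their groove and guides them to endosomes. There the H2-M heterodimer exchanges the remnant of the invariant chain for other peptides, and H2-O, found mainly in B cells and some dendritic cells, holds H2-M back. C57BL/6 mice express the class II molecule I-A, built of H2-Aa and H2-Ab1. They lack a working gene for the α chain of I-E, whose β chain is H2-Eb1.

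Of the members, 8 lie within 224335 bases of chromosome 17 (GRCm39, 34311314 to 34535648, GENCODE M39). Their order is H2-Oa, H2-DMa, H2-DMb2, H2-DMb1, H2-Ob, H2-Ab1, H2-Aa and H2-Eb1. Ciita lies on chromosome 16 (10297923 to 10347694) and Cd74 elsewhere. RefSeq promoter windows (GRCm38.p6), 250 bases before to 50 after a start site, matched 7 members with 8 windows. H2-Ab1, Cd74 and Ciita had none. The 250 bases before each start were searched on both strands for an X core (CNNNNAAC) followed after 18 to 30 bases by a Y core (TGATTGG), a pattern written after these promoters had been read. It was found in 6 of the 8 windows, those of H2-Aa, H2-Eb1, H2-DMb1, H2-DMb2, H2-Oa and H2-Ob, and in 81 of 32851 promoter windows in all (0.247%). Neither H2-DMa window held it. The modules are printed on the strand of their gene, because they are the shared sequence through which Ciita acts, with X core and Y core in capitals.
H2-Aa: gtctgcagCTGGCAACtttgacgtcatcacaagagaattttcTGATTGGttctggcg
H2-Eb1: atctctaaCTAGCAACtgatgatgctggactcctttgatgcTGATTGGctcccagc
H2-DMb1: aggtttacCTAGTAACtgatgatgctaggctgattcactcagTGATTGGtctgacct
H2-DMb2: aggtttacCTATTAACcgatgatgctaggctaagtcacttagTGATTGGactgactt
H2-Oa: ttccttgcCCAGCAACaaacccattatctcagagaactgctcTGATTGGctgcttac
H2-Ob: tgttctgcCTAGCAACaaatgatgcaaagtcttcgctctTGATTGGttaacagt

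In GRCm38.p6 these stretches are chr17:34287859-34287915 on the minus strand for H2-Aa and, on the plus strand, chr17:34305765-34305820 for H2-Eb1 and chr17:34153086-34153142 for H2-DMb1. They are chr17:34145115-34145171 for H2-DMb2, chr17:34092292-34092348 for H2-Oa and chr17:34238807-34238860 for H2-Ob, also on the plus strand. The cores were 26 bases apart in 4 of the 6 modules, 25 in H2-Eb1 and 23 in H2-Ob, and 38 to 85 bases separated the Y core from the start site. The H2-DMb1 and H2-DMb2 stretches differed at 7 of 57 positions, whereas H2-DMb1 and H2-Aa differed at 35 of 57. Alone, the X core was common (75.6% of all windows) and the Y core less so (7.23%). The core of an interferon-stimulated response element, GAAANNGAA, was in none of the 8 member windows (7.13% of all windows). The core of a STAT site, TTCNNNGAA, was in the H2-DMb2 window only (7.02% of all windows). These matches describe letters in the windows, and binding was not measured. Members that rose with IFNβ (H2-DMb2) and fell with it (H2-Eb1) carried the same module, as the following values show.

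Library totals ran from 31526034 to 45348457 counts. Of the listed genes, 15033 passed a filter on low counts and were tested, 8 of the members among them. H2-Oa and H2-Ob did not pass. Values are CPM, the counts of a gene per 1000000 of the normalized library total. A gene was called where edgeR's quasi-likelihood test gave an adjusted p no higher than 0.05. The labelled cell type was checked against markers. All 8 macrophage markers, such as Adgre1 (F4/80, 1484 to 1836 CPM in all libraries), were tested, and 4 rose and 3 fell with Ifnb1eGFP against eGFP supernatant, as they did with rIFNβ. Their summed level was 18252 to 18802 CPM with eGFP supernatant and 10502 to 10720 with Ifnb1eGFP supernatant, and 14396 to 15597 in untreated cells and 9818 to 9950 with rIFNβ. Among them Lyz2 (lysozyme), the largest part of the sum in both, had a mean of 12396 CPM with eGFP supernatant and 4111 with Ifnb1eGFP supernatant. Itgam (CD11b) had 1620 and 409. Means were higher with Ifnb1eGFP supernatant for Fcgr1 (83.0 and 1199 CPM), Cd68 (1289 and 1645) and Mertk (126 and 158). Of 9 dendritic cell markers 4 were tested. All 4 fell with Ifnb1eGFP against eGFP supernatant and 3 with rIFNβ (median log2 fold changes −1.94 and −1.64). Of all genes, 25% and 24.6% were called lower. Mean CPM with eGFP and Ifnb1eGFP supernatant was 1.40 and 0.277 for Zbtb46, 2.98 and 1.11 for Batf3, and 0.383 and 0.128 for Clec9a. Flt3, Ccr7 and Siglech of this list had at most 3 counts in every library. Itgax (CD11c), also expressed by macrophages, went from 776 ± 24.0 CPM (SD, n = 3) with eGFP supernatant to 25.6 ± 2.48 with Ifnb1eGFP supernatant. The B cell list, with Fcer2a (CD23) at most at the floor of 3 counts, summed to 0.878 to 0.909 CPM with eGFP supernatant and 1.54 to 1.90 with Ifnb1eGFP supernatant, and to 0.878 to 1.08 in untreated cells and 1.53 to 2.08 with rIFNβ. All 3 of its tested genes, Cd79b, Pax5 and Ebf1, rose with Ifnb1eGFP supernatant, and Cd79b and Pax5 with rIFNβ. Of all genes, 30.1% and 30.7% were called higher. Pax5 had 0 to 3 counts per library without IFNβ and 7 to 18 with it. It passed the filter on low counts only through the conditions where it is high, so its rise is no separate result. Ebf1 had 4 to 9 counts with eGFP supernatant and 15 to 22 with Ifnb1eGFP supernatant. The T cell list summed to at most 1.2 CPM with Cd3e at the floor. The neutrophil list summed to 4.3 to 5.7 CPM in untreated cells and 0.4 to 0.5 with Ifnb1eGFP supernatant. Of the melanoma list, Tyr, Dct, Tyrp1 and Sox10 were at the floor and Mitf, which macrophages express, made up nearly all of the sum. In bulk RNA, fewer cells of a type and less RNA per cell cannot be told apart. The 6 interferon-response genes summed to 8130 to 8953 CPM in the IFNβ-exposed libraries and to 82.2 to 644 in the others, with the highest value in replicate 2 of eGFP supernatant. Whether any of these shifts between conditions contributed to the class II values was not tested. Without replicate 2 of eGFP supernatant the calls of Ifnb1eGFP against eGFP supernatant described next were the same 3, with log2 fold changes of −1.47 for Ciita, −0.55 for H2-Eb1 and 1.43 for H2-DMb2. Of 4 IL4-response genes, 1 was called higher and 0 lower in each IFNβ comparison. Mrc1 stood at 609 to 839 CPM, while Arg1 stayed under 1 CPM. Retnla had condition means of 55.2 to 63.4 CPM. Chil3 had a mean of 74.9 CPM with eGFP supernatant and 128 with Ifnb1eGFP supernatant, and 72.8 in untreated cells and 116 with rIFNβ.

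The members spanned more than 3 orders of magnitude. Levels were compared between genes per kilobase of the canonical transcript. In untreated cells Cd74 had 95.8 ± 11.2 CPM per kilobase (SD, n = 3), H2-DMb1 24.2 ± 1.11, H2-Aa 23.0 ± 2.84, H2-Ab1 13.5 ± 1.64, H2-DMa 12.8 ± 2.21 and H2-Eb1 6.58 ± 0.588. H2-DMb1 and H2-Aa overlapped, and so did H2-Ab1 and H2-DMa, so neither pair was ordered. Far below them were H2-DMb2 at 0.402 ± 0.0572, Ciita at 0.182 ± 0.0280, H2-Ob at 0.0296 ± 0.0122 and H2-Oa at 0.0261 ± 0.0452. When the length of all annotated exons was used instead, H2-Ab1 came above H2-Aa and H2-Eb1 above H2-DMa in untreated cells. The first place of Cd74 and the last 4 places did not change membership. The other class II loci H2-Ea and H2-Eb2 had at most 3 counts in every library.

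**Figure D1:**
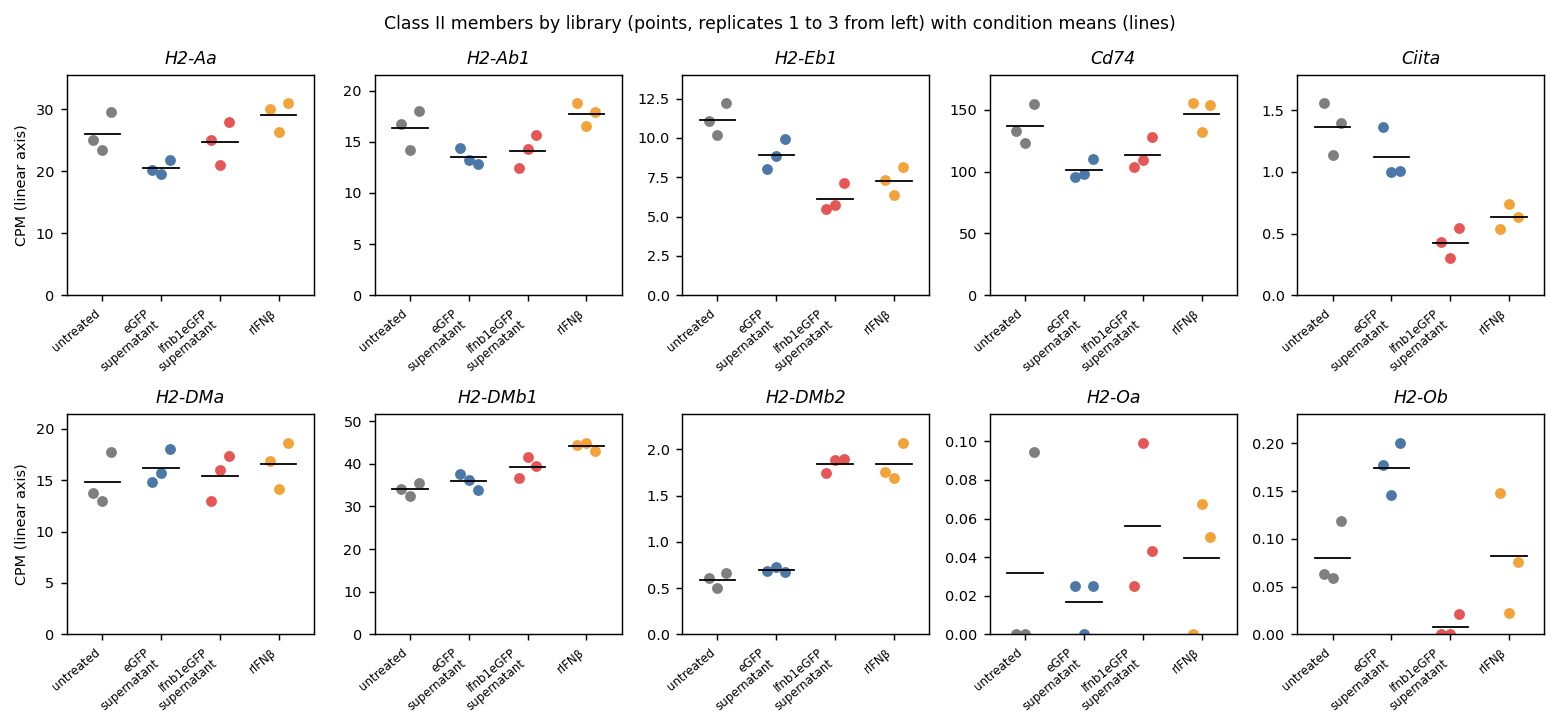
CPM of each member in every library on linear axes that start at 0, with 1 panel per gene, 3 points per condition in replicate order and a line at the condition mean. Ciita and H2-Eb1 are lower and H2-DMb2 is higher in the IFNβ-exposed conditions, while the libraries of H2-Aa, H2-Ab1, Cd74 and H2-DMa overlap in both IFNβ comparisons.

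The first question was how IFNβ from tumor cells acts on the class II genes, which is the comparison of Ifnb1eGFP with eGFP supernatant. Ciita and H2-Eb1 fell, H2-DMb2 rose, and the remaining 5 tested members, H2-Aa, H2-Ab1, Cd74, H2-DMa and H2-DMb1, did not pass. Among all genes tested, 30.1% were called higher and 25% lower, so 1 higher and 2 lower of 8 members did not exceed the background. The median log2 fold change was 0.10 over the 8 members and 0.03 over all genes. rIFNβ against untreated cells, which shares no library with the first comparison, called Ciita and H2-Eb1 lower and H2-DMb2 and H2-DMb1 higher. Here 30.7% of all genes were called higher and 24.6% lower, again close to or above the members' shares of 2 of 8 each, and the medians were 0.14 over the members and 0.04 over all genes. No member passed the stricter thresholds of the study's methods, a log2 fold change of 2 or more in size at an adjusted p up to 0.01. These were met by 5.39% of genes for the supernatants and by 5.77% for rIFNβ.

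**Figure D2:**
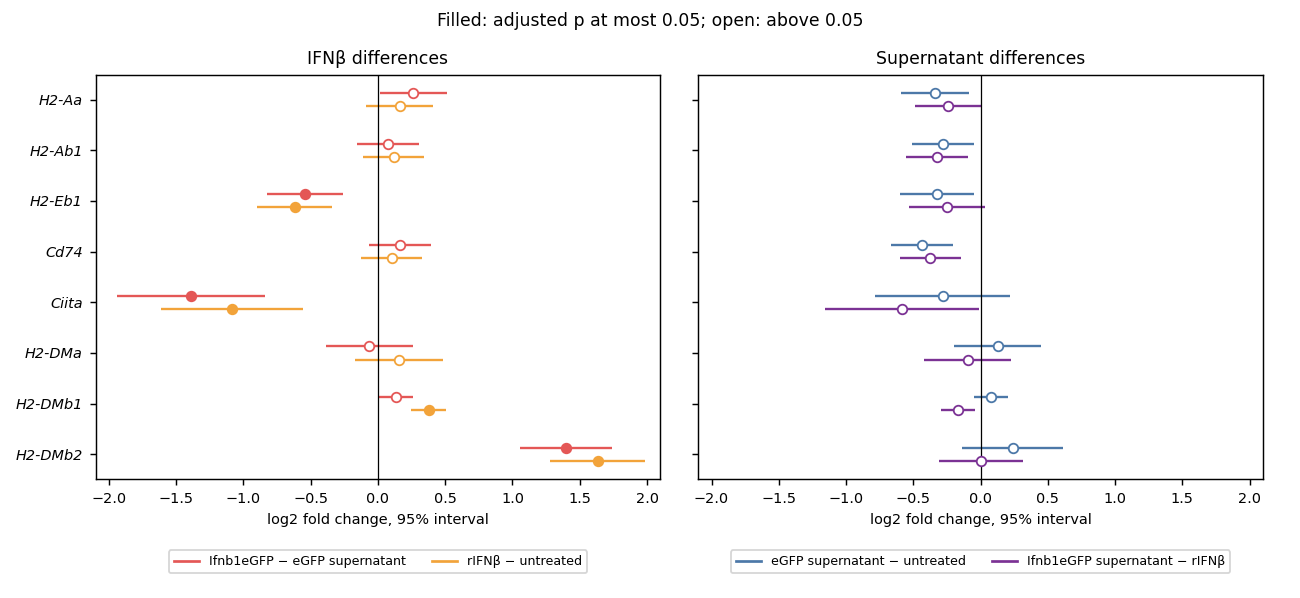
Log2 fold changes of the 8 tested members with 95% intervals, for the IFNβ comparisons on the left and the supernatant comparisons on the right. Filled points passed the test (adjusted p up to 0.05). On the left Ciita, H2-Eb1 and H2-DMb2 are filled in both comparisons and H2-DMb1 in 1, and on the right every point is open.

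Ciita, the transactivator, had 1.56, 1.14 and 1.40 CPM in untreated replicates 1 to 3 and 1.36, 0.999 and 1.00 with eGFP supernatant. It had 0.430, 0.298 and 0.543 CPM with Ifnb1eGFP supernatant and 0.534, 0.742 and 0.632 with rIFNβ. The 6 exposed libraries were all below the 6 unexposed ones. The log2 fold change was −1.39 ± 0.25 (SE, adjusted p = 0.00061) for Ifnb1eGFP against eGFP supernatant, a 2.62-fold fall. It was −1.09 ± 0.24 (adjusted p = 0.00237) for rIFNβ against untreated cells. These levels rest on 12 to 59 counts per library. The table holds 1 value per gene and so does not separate the transcripts that start at the different Ciita promoters.

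The antigen-presenting chains did not follow Ciita as a group. H2-Eb1, the I-E β chain, had 11.1, 10.2 and 12.2 CPM in untreated cells and 8.03, 8.82 and 9.91 with eGFP supernatant. It had 5.46, 5.74 and 7.15 CPM with Ifnb1eGFP supernatant and 7.33, 6.39 and 8.14 with rIFNβ. Each exposed group lay wholly below its control. The log2 fold changes were −0.54 ± 0.13 (adjusted p = 0.00382) and −0.62 ± 0.13 (adjusted p = 0.00147).

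H2-Aa, the I-A α chain, had 25.0, 23.3 and 29.5 CPM in untreated cells and 20.2, 19.6 and 21.8 with eGFP supernatant. It had 25.0, 20.9 and 27.9 CPM with Ifnb1eGFP supernatant and 30.1, 26.4 and 30.9 with rIFNβ. Exposed and control libraries overlapped in both comparisons. The log2 difference was 0.26 with a 95% interval of 0.01 to 0.51 (adjusted p = 0.0704) for the supernatants. For rIFNβ it was 0.16 with an interval of −0.09 to 0.41 (adjusted p = 0.249). With a term for the replicate number added to the model, H2-Aa was called higher in both comparisons. H2-Ab1, the I-A β chain, had 14.4, 13.2 and 12.8 CPM with eGFP supernatant and 12.5, 14.3 and 15.7 with Ifnb1eGFP supernatant. It had 16.8, 14.2 and 18.1 CPM in untreated cells and 18.8, 16.6 and 17.9 with rIFNβ. The groups overlapped again, and the intervals of the log2 differences, −0.16 to 0.30 and −0.11 to 0.35, included 0 and did not reach the −0.54 and −0.62 of H2-Eb1.

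Cd74, the invariant chain, was the most abundant member, with 133, 124 and 155 CPM in untreated cells, 95.9, 98.3 and 110 with eGFP supernatant, 103, 109 and 128 with Ifnb1eGFP supernatant and 155, 132 and 154 with rIFNβ. IFNβ-exposed and control libraries overlapped, with log2 differences of 0.16 (interval −0.07 to 0.39, adjusted p = 0.207) and 0.10 (interval −0.13 to 0.33, adjusted p = 0.442). H2-Aa and H2-Eb1 overlap by 2563 bases on opposite strands in the annotation. The libraries were stranded, and whether the counting used the strand was not given in the sources used here.

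The peptide editor H2-M is built of H2-DMa and a β chain from H2-DMb1 or its neighbour H2-DMb2. H2-DMb2 had 0.604, 0.498 and 0.662 CPM in untreated cells and 0.682, 0.731 and 0.678 with eGFP supernatant. It had 1.74, 1.89 and 1.89 CPM with Ifnb1eGFP supernatant and 1.75, 1.69 and 2.07 with rIFNβ. All exposed libraries were above all unexposed ones. The log2 fold change was 1.40 ± 0.15 (adjusted p = 1.34e-05), a 2.63-fold rise, and 1.63 ± 0.16 (adjusted p = 4.65e-06), a 3.10-fold rise.

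H2-DMb1, which had more counts than H2-DMb2 in every library, had 37.6, 36.2 and 33.9 CPM with eGFP supernatant and 36.8, 41.7 and 39.5 with Ifnb1eGFP supernatant. It had 34.1, 32.4 and 35.5 CPM in untreated cells and 44.5, 44.98 and 43.1 with rIFNβ. It rose with rIFNβ (log2 fold change 0.38 ± 0.06, adjusted p = 0.00019), where the libraries did not overlap, and missed the threshold with Ifnb1eGFP supernatant (0.13, interval 0.00 to 0.26, adjusted p = 0.0748), where they did. The difference between these effects, the interaction of IFNβ and supernatant, was −0.25 (interval −0.43 to −0.06, unadjusted p = 0.0125) and did not pass after adjustment (adjusted p = 0.926). H2-DMa, the α chain, had 14.8 to 18.02 CPM with eGFP supernatant, 12.996 to 17.4 with Ifnb1eGFP supernatant, 12.97 to 17.7 in untreated cells and 14.1 to 18.6 with rIFNβ, with log2 differences of −0.07 (interval −0.39 to 0.26) and 0.16 (interval −0.17 to 0.48). The H2-DMb genes are near copies. Of the 50-base windows of their canonical transcripts, 27.2% of those of H2-DMb1 and 26.1% of those of H2-DMb2 occur in the other. RSEM divides such reads by estimate. In untreated cells H2-DMb1 had 1074 to 1500 counts per library and H2-DMb2 17 to 28. A small share of H2-DMb1 reads assigned wrongly could therefore amount to much of the H2-DMb2 value. Whether it did was not tested. H2-DMa overlaps Brd2 by 3231 bases on the opposite strand in the annotation, and Brd2, a bromodomain protein, rose by a log2 fold change of 0.65 and 0.64.

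H2-O was close to the limit of detection. H2-Oa had 0 to 4 counts per library in every condition. H2-Ob had 2, 2 and 5 counts in untreated cells, 7, 6 and 8 with eGFP supernatant, 0, 0 and 1 with Ifnb1eGFP supernatant and 5, 1 and 3 with rIFNβ. With Ifnb1eGFP supernatant the summed count was 1 against 21 with eGFP supernatant, a ratio of 0.0456 with a 95% interval from counting error alone of 0.0011 to 0.283. For rIFNβ against untreated cells both sums were 9, a ratio of 0.916 with an interval of 0.322 to 2.61. When the filter on low counts was left out, H2-Ob was called in the first comparison (adjusted p = 0.00232) and not in the second (adjusted p = 1), and its interaction was not called (adjusted p = 1.00).

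Of the 8 tested members, the libraries of H2-Eb1, H2-DMb2 and Ciita did not overlap between Ifnb1eGFP and eGFP supernatant, and those of the same 3 genes and H2-DMb1 did not overlap between rIFNβ and untreated cells. Over all genes tested the shares without overlap were 59% and 66.1%, which 3 and 4 of 8 do not exceed.

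Ratios between members were tested next, since a ratio does not depend on the scaling of the library. H2-Eb1/H2-Ab1 sets the β chain of I-E against that of I-A, and H2-DMb2/H2-DMb1 compares the alternative β chains of H2-M. IFNβ-exposed and unexposed libraries were compared within each supernatant state in an exact permutation test (two-sided, 400 relabellings), whose smallest possible p is 0.005. The H2-Eb1/H2-Ab1 ratio was 0.662 to 0.722 in untreated cells and 0.558 to 0.774 with eGFP supernatant. It was 0.403 to 0.457 with Ifnb1eGFP supernatant and 0.387 to 0.456 with rIFNβ. It was 1.60-fold lower with IFNβ (log2 difference −0.68, exact permutation p = 0.005, adjusted over 4 ratios 0.01), with no overlap between the 6 exposed and the 6 unexposed libraries. The H2-DMb2/H2-DMb1 ratio was 2.29-fold higher (log2 difference 1.20, exact permutation p = 0.005, adjusted 0.01), likewise with no overlap. H2-DMb2 took 1.51% to 1.98% of the counts of both H2-DMb genes in unexposed libraries and 3.61% to 4.59% in exposed ones. Both this share and the ratio depend on how reads common to these genes were divided.

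The I-A chains kept their ratio more closely. The H2-Aa/H2-Ab1 ratio ran from 1.40 to 1.70 without IFNβ and from 1.46 to 2.00 with it (log2 difference 0.12, exact permutation p = 0.18, adjusted 0.24). The Cd74/H2-Ab1 ratio ran from 6.63 to 8.70 and from 7.62 to 8.58 (log2 difference 0.04, exact permutation p = 0.595). The ratios of H2-Oa to H2-DMa and of H2-Ob to H2-DMb1 had libraries at 3 counts or fewer and were not tested. Their log2 values were −7.80 ± 0.48 (SD, n = 6) without and −7.42 ± 0.58 with IFNβ for the first, and −7.69 ± 0.46 and −8.96 ± 0.71 for the second.

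**Figure D3:**
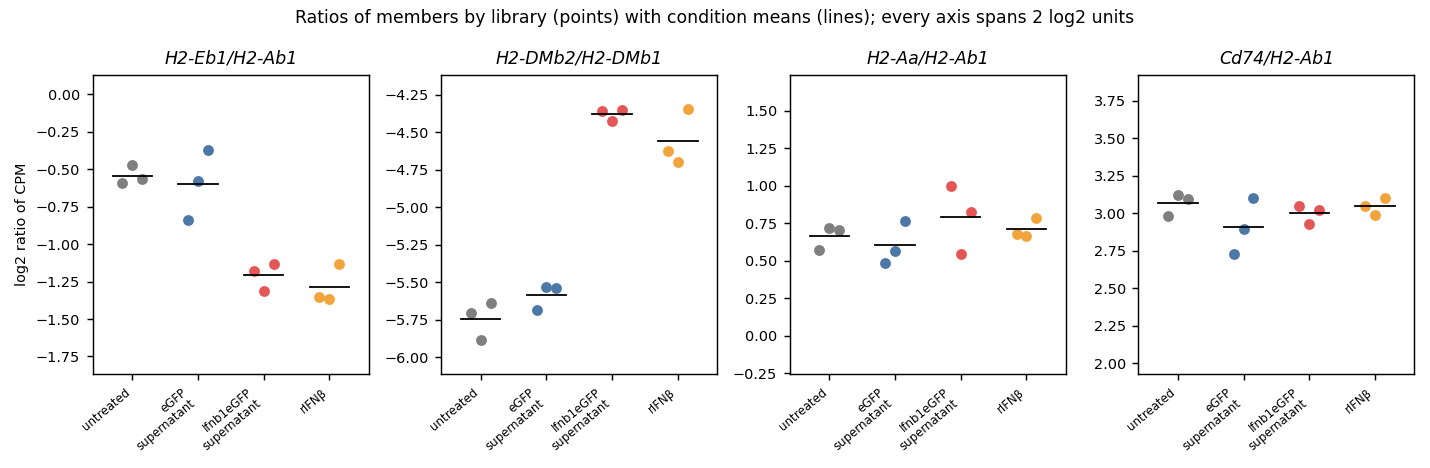
Log2 ratio of CPM between members in every library, with 3 points per condition and a line at the mean. The axes differ in position but all span 2 log2 units. H2-Eb1/H2-Ab1 is lower and H2-DMb2/H2-DMb1 higher in all 6 exposed libraries, while the exposed and unexposed libraries of the other ratios overlap.

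A further comparison asked whether supernatant itself, apart from IFNβ, moved the members. With eGFP supernatant against untreated cells no member passed, and 0.299% of all genes did. At an unadjusted p under 0.05 there were 4 of 8 members, H2-Aa, H2-Ab1, H2-Eb1 and Cd74, all with lower values in supernatant, and 8% of all genes in either direction. Their log2 differences were −0.34, −0.28, −0.33 and −0.44 (Cd74, unadjusted p = 0.00154, adjusted p = 0.162). With Ifnb1eGFP supernatant against rIFNβ, in different libraries, again no member passed by edgeR or DESeq2 and 0.16% of all genes passed by edgeR. The log2 differences of the 4 genes were −0.24, −0.32, −0.25 and −0.37 here, in the same order. An unadjusted p under 0.05 was seen for 4 of 8 members, H2-Ab1, Cd74, H2-DMb1 and Ciita, again all lower with supernatant, and for 8.57% of all genes. Ciita differed by −0.28 (interval −0.78 to 0.22) and −0.58 (interval −1.16 to −0.01), and H2-DMb2 by 0.24 and 0.00.

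Of the 8 tested members, libraries did not overlap for H2-Aa, H2-Eb1, H2-DMb2 and Cd74 with eGFP supernatant against untreated cells, where 15.5% of all genes did not, and for H2-Ab1, H2-DMb1 and Cd74 with Ifnb1eGFP supernatant against rIFNβ, where 12.8% of all genes did not. Cd74 had the smallest unadjusted p of the members in both. DESeq2 called it lower with eGFP supernatant (adjusted p = 0.0194) where edgeR did not. Without replicate 2 of eGFP supernatant, the library with raised interferon-response genes, its log2 difference was −0.41 and the adjusted p 0.503.

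Contrasts that average over the other factor were added after these values had been seen. Averaged over IFNβ, Cd74 was lower with supernatant (log2 fold change −0.40 ± 0.07, adjusted p = 0.0329), the 1 member called, where 0.213% of all genes were called lower. H2-Aa, H2-Ab1 and H2-Eb1 stood at −0.29, −0.30 and −0.29 with adjusted p of 0.167, 0.110 and 0.228. The Cd74 call was lost when 1 of 7 libraries was left out: untreated replicate 1 (adjusted p = 0.0747) or 3 (0.0729), eGFP supernatant replicate 1 (0.0931) or 2 (0.0881), Ifnb1eGFP supernatant replicate 1 (0.0787), or rIFNβ replicate 1 (0.101) or 3 (0.0914). In the same contrast the replicate block called H2-Aa (adjusted p = 0.00932), H2-Eb1 (0.0354) and Cd74 (0.00268) lower with supernatant. DESeq2 called H2-Ab1 (adjusted p = 0.0225) and Cd74 (0.000183) lower. Averaged over supernatant, H2-DMb2, H2-DMb1 and H2-Aa were called higher with IFNβ and H2-Eb1 and Ciita lower. Of all genes, 36.1% were called higher and 30.1% lower. The H2-Aa rise, 0.21 ± 0.08 (adjusted p = 0.0349), was lost in 10 of 17 alternatives. It was lost with DESeq2 (adjusted p = 0.0896) and RLE factors (0.0956), and without replicates 1 or 2 of untreated cells or eGFP supernatant or replicates 1 or 3 of Ifnb1eGFP supernatant or rIFNβ, with adjusted p of 0.0654 to 0.141. The interaction was called for none of the 8 members by edgeR, with 1 of them, H2-DMb1, at an unadjusted p under 0.05 where 4.4% of all genes were, and DESeq2 called none either.

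The upstream genes of the pathway were examined as lists, whose counts are to be read against the 30.1% of all genes called higher and 25% lower with Ifnb1eGFP supernatant and the 30.7% and 24.6% with rIFNβ. Of 11 genes of the class II transcription machinery, 5 rose and 2 fell with Ifnb1eGFP against eGFP supernatant, and 4 rose and 2 fell with rIFNβ (median log2 fold changes 0.14 and 0.11). Kat2b and Crebbp, acetyltransferases that CIITA recruits, rose by 0.86 and 0.62 with supernatant and by 0.89 and 0.62 with rIFNβ. Rfx5, the DNA-binding RFX subunit, rose by 0.35 and 0.69. Nfya, a subunit of the Y box factor NF-Y, fell by 0.40 and 0.45, and Rfxap, another RFX subunit, fell by 0.28 and 0.35. The machinery thus moved by less than Ciita, and in both directions.

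Of 19 genes in signals that reach Ciita, 11 rose and 3 fell with Ifnb1eGFP supernatant, and 11 rose and 4 fell with rIFNβ (medians 0.42 and 0.40). Il10, a cytokine that restrains macrophages, rose by 3.63 and 3.69, its receptor chain Il10ra by 0.96 and 1.09, and the kinase Jak2 by 1.27 and 1.26. Irf4, a transcription factor of the IL4 response, fell by 1.25 and 1.02, Tgfbr1, a TGFβ receptor, by 0.61 and 0.68, and Ifngr2, an IFNγ receptor chain, by 0.22 and 0.21. These genes act on Ciita in other settings. Whether they did so here was not tested.

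Downstream, 11 genes of invariant chain cleavage and antigen processing split into 5 that rose and 4 that fell in each IFNβ comparison (medians 0.00 and 0.09). Cathepsin S (Ctss), which makes the last cut of the invariant chain, rose by 0.90 and 0.76, the legumain gene Lgmn by 1.57 and 1.82, and cathepsin H (Ctsh) by 1.37 and 1.43. Ifi30, the thiol reductase GILT that opens disulfide bonds of antigens, fell by 1.10 and 1.06, cathepsin F (Ctsf) by 0.73 and 0.54, and cathepsin D (Ctsd) by 0.19 and 0.19. Lgmn was 1 of 2 genes of this list called higher with eGFP supernatant against untreated cells (0.44 ± 0.05, adjusted p = 0.00552). With Ifnb1eGFP supernatant against rIFNβ 1 gene of the list was called higher. Cathepsin L (Ctsl) had a mean of 4258 CPM in untreated cells and 5941 with eGFP supernatant. Its mean was 5712 CPM with rIFNβ and 8301 with Ifnb1eGFP supernatant.

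Of 9 genes of surface turnover, ubiquitin ligases and the tetraspanins that organize class II in the membrane, 1 rose and 3 fell with Ifnb1eGFP supernatant and 2 rose and 3 fell with rIFNβ (medians 0.00 and 0.02). The tetraspanin Cd9 fell by 2.31 and 2.53, Cd81 by 0.97 and 0.84 and Cd63 by 0.66 and 0.71, while Cd53 rose by 0.51 and 0.35. Of 5 costimulatory genes, 3 rose and 2 fell in each comparison (medians 0.92 and 1.41). Cd86, the ligand of CD28, rose by 3.02 and 3.70, the ICOS ligand Icosl by 1.94 and 2.65 and Cd40 by 0.92 and 1.41, while Icam1 fell by 0.53 and 0.40 and Cd80 by 0.31 and 0.45.

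The class II region itself holds genes of class I presentation, which gives a local comparison. Of 6 neighbours listed, 5 were tested and all 5 rose in both comparisons (medians 1.84 and 1.99). They were Tap1 (2.63 and 3.17) and Tap2 (1.08 and 1.38), which form the peptide transporter, the immunoproteasome subunits Psmb8 (1.84 and 1.99) and Psmb9 (2.24 and 2.50), and Brd2. Between H2-DMb1 and H2-Ob, 78631 bases, 6 genes were tested, Tap1, Tap2, Psmb8, Psmb9 and the predicted genes Gm20496 and Gm15821, of which 5 were higher with Ifnb1eGFP supernatant and 6 with rIFNβ. Of the 8 tested genes of the region that are no members, Brd2 and Gm50335 lay outside this stretch, and Gm50335 was not called with Ifnb1eGFP supernatant (−0.43) and fell with rIFNβ (−1.38, adjusted p = 0.00166). Of the tested members on either side of this stretch, H2-DMb2 rose in both comparisons and H2-Eb1 fell in both. H2-DMb1 was called with rIFNβ and not with Ifnb1eGFP supernatant, and H2-DMa, H2-Ab1 and H2-Aa were called with neither. Class I itself moved in 1 direction. All 4 genes of the class I list, Nlrc5 (the class I counterpart of Ciita), B2m, H2-K1 and H2-D1, rose, with medians of 2.15 and 2.42. H2-K1, a class I heavy chain, went from 518 ± 40.0 CPM (SD, n = 3) with eGFP supernatant to 3366 ± 496 with Ifnb1eGFP supernatant, whereas H2-Ab1 went from 13.5 ± 0.836 to 14.2 ± 1.62.

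**Figure D4:**
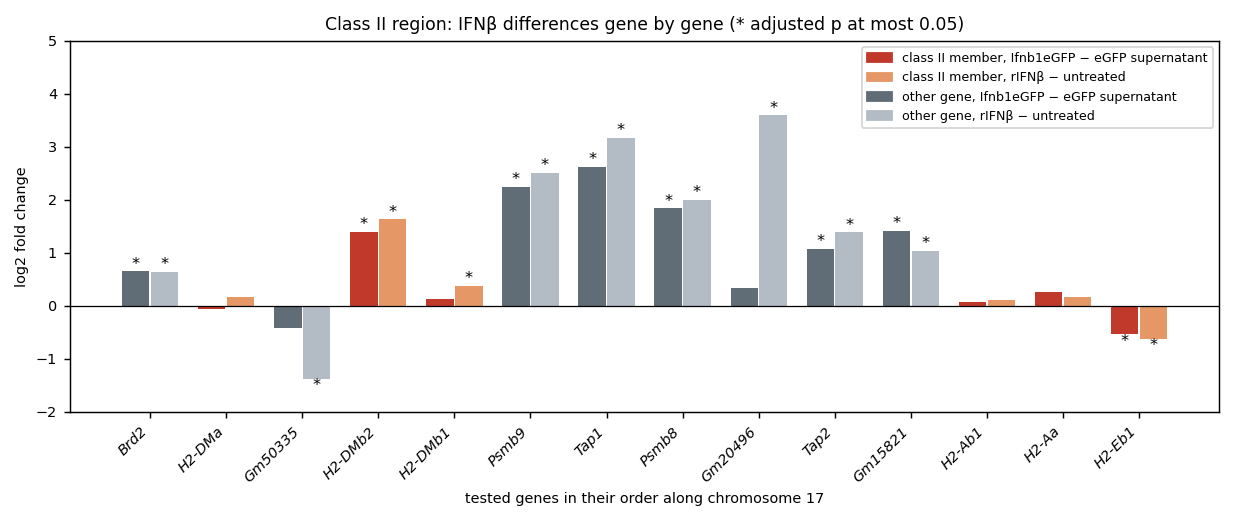
Log2 fold changes of the tested genes in their order along the class II region of chromosome 17, with 1 bar for each IFNβ comparison, class II members in red and orange, other genes in grey, and a star where the test was passed. The genes from Psmb9 to Gm15821, which include Tap1, Psmb8 and Tap2, form a block of upward bars, with Gm20496 passing in 1 comparison, between H2-DMb1 and the short bars of H2-Ab1 and H2-Aa.

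The genes whose profile over the 12 libraries was most like that of a member were found by the root mean square difference of centred log2 CPM. For the mean of H2-Aa, H2-Ab1, H2-Eb1 and Cd74 these were Rtl6, Mdga1, Fsip1, Npm3 and Zhx2, at 0.13 log2 units each, against 0.20 for the spread of the profile about its own mean. None of the 5 was called in either IFNβ comparison (adjusted p from 0.0922 to 0.986). The mean profile moved little with IFNβ, although H2-Eb1 within it fell, so the lack of calls follows from choosing genes by likeness to it. The profile was not flat with supernatant. All 5 genes were lower with eGFP supernatant than in untreated cells (log2 differences −0.33 to −0.09), as were the 4 class II genes. For Ciita they were Kdelr3, Irf4 and Gm15931, at 0.20, 0.21 and 0.22 against 0.67 for the Ciita profile. These 3 were chosen by likeness to a profile that fell in both comparisons, so their own falls follow from the choice. Kdelr3 fell by 1.14 and 1.03 and Gm15931 by 0.94 and 0.92. Irf4 went from 2.82 ± 0.205 CPM with eGFP supernatant to 1.18 ± 0.0401 with Ifnb1eGFP supernatant and from 3.80 ± 0.601 in untreated cells to 1.86 ± 0.262 with rIFNβ.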

How the data were processed

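Bulk RNA sequencing of 12 libraries, 3 for each of 4 conditions, was analysed. From a stranded total RNA kit (TruSeq), the authors made libraries, ran RSEM (1.3.3) for alignment and deposited expected counts per Ensembl gene, neither normalized nor filtered. The genome named, GRCm39 mm10, combines 2 build names. Positions here are those of GRCm39, and promoters those of RefSeq (GRCm38.p6). Symbols came from GENCODE M39, which names 56017 of the 56748 genes.

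Expected counts were rounded (12.0% of the deposited values were not whole). Genes that passed filterByExpr (minimum count 10) were scaled by TMM in edgeR 4.0.16 (R 4.3.3). All libraries shared 1 quasi-likelihood model, which had no term for the replicate number. p values were adjusted by Benjamini-Hochberg over the 15033 genes tested. Standard errors were taken as the log2 fold change divided by the root of F, and intervals are 95% intervals. Log2 CPM and ratios used a prior count of 2. The floor was 3 counts per library. Counting intervals are exact binomial and cover counting error only. With 3 libraries against 3 an exact permutation test cannot go below p = 0.1, so single genes were tested only in the model.

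Lists were written from general knowledge. The members, lists and tests were chosen with earlier results of these data known. All members were named, and from each pathway list the 3 smallest adjusted p in each direction for Ifnb1eGFP against eGFP supernatant. Other genes (Tap2, Brd2, Nlrc5, Ctsl and those naming a marker list) were named to complete a list or count. The 5 genes most like the chains and 3 most like Ciita were also named. Alternatives were DESeq2 1.42.0 without independent filtering, RLE factors, library totals without TMM, no filter, the replicate block, the study's thresholds, only the compared conditions, a prior count of 0.5 for ratios, and each library left out.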

Additional observations from a re-analysis of the deposited data

How the results depend on the processing

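The calls of Ciita, H2-Eb1 and H2-DMb2 in both IFNβ comparisons, and of H2-DMb1 with rIFNβ, passed in all 12 alternatives run for each of them other than the study's thresholds, which no member passed (0 members against 3, 4 and, for the averaged contrast, 5). With 1 library left out, 3 to 4 members were called for Ifnb1eGFP against eGFP supernatant and 4 to 4 for rIFNβ. The fourth was H2-Aa without Ifnb1eGFP supernatant replicate 2 (adjusted p = 0.0108) or H2-DMb1 without its replicate 1 (adjusted p = 0.0348). H2-DMb1 was also called there on library totals without TMM (adjusted p = 0.0367). For eGFP supernatant against untreated cells 0 members were called, 1 with DESeq2 (Cd74) and 2 with the replicate block (H2-Aa and Cd74). The averaged contrasts were chosen after seeing the data. That of supernatant called 1 member, 2 with DESeq2, 3 with the replicate block and 0 in the left-out runs named above. That of IFNβ called 5, 4 with DESeq2 and 6 with the replicate block. Why these counts moved was not tested.

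With 1 library left out, the log2 ratio differences ranged from 0.06 to 0.18 for H2-Aa/H2-Ab1, −0.74 to −0.62 for H2-Eb1/H2-Ab1, −0.01 to 0.09 for Cd74/H2-Ab1 and 1.14 to 1.23 for H2-DMb2/H2-DMb1. The log2 differences that changed sign had not been called. With Ifnb1eGFP against eGFP supernatant they ranged from −0.0092 to 0.12 for H2-Ab1 and from −0.16 to 0.018 for H2-DMa. Against rIFNβ they ranged from −0.20 to 0.017 for H2-DMa and from −0.055 to 0.10 for H2-DMb2, which stood at −0.0057 on library totals without TMM. In the interaction they ranged from −0.0035 to 0.21 for H2-Aa, −0.13 to 0.047 for H2-Ab1, −0.051 to 0.17 for H2-Eb1 and −0.034 to 0.13 for Cd74.

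Libraries with the same replicate number correlated in their deviations from the condition means with a mean r of 0.148 (0.0582 to 0.252 over 18 pairs), against −0.0742 (−0.318 to 0.147) over 36 other pairs. Not every pair passed 0.1, so the numbers were not treated as pairs, although 12 of 12 libraries correlated best with their own number. The main tests therefore leave out whatever same-numbered libraries share. With the replicate block H2-Aa was called with Ifnb1eGFP against eGFP supernatant (adjusted p = 0.00403) and with rIFNβ (adjusted p = 0.0313). Depth limits H2-Oa and H2-Ob, at 8 counts per library or fewer, and to a lesser degree Ciita and H2-DMb2.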
